A study of Mus musculus with 17 samples.

Results

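The 10 genes that took the most reads in leptotene/zygotene spermatocytes (LZ) of Nat10-SKO mice were Nip7, Gm16702, Slc7a14, A630055G03Rik, Dclre1c, Bcas2, Lcmt2, Slfn5, A330069E16Rik and Gm15645. They were chosen from the 23282 genes of the table by their mean RPM, a gene's reads scaled to a fixed library total, over the 3 SKO LZ libraries, so their level in those libraries is what defined them and is given below as a description, without a test. All 10 were found in the table and all 10 passed the filter on low values, a mean of at least 10 reads, in every comparison. The last gene inside the choice was Gm15645 with a mean of 6521 RPM in SKO LZ, and the first outside it was Lrrc17 with 6476 RPM.

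RNA-seq was available for 6 groups of sorted male germ cells from C57BL/6 mice: spermatogonia (SPG) and pre-leptotene spermatocytes (PreL) with 3 WT and 3 SKO libraries each, and LZ with 2 WT and 3 SKO libraries. SKO mice were Nat10 fl/-;Stra8-Cre, in which a Cre knocked into Stra8, a gene switched on as germ cells prepare for meiosis, removes loxP-flanked exons of Nat10 in germ cells, while WT mice carried no such deletion. The stages were separated by flow cytometry after Hoechst and propidium iodide staining. The age of the mice is not given in the sources used here. The paper calls the libraries of a group biological replicates, but whether each came from a separate animal is not given. The p-values thus measure the spread between these libraries, part of which may be technical. In such bulk samples, fewer cells of a type and less RNA per cell cannot be told apart.

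The recovered reads ranged from 5812380 to 13820953 per library, with the 3 lowest totals, 5812380, 7609420 and 6927757, in SKO LZ. The authors' spike-in calibration multiplied each library by 1 factor. It was at most 1.62 in both SPG groups and WT PreL, 2 to 2.48 in SKO PreL, 3.25 and 4 in WT LZ, and between 7.43 and 10.4 in SKO LZ. Nat10 had mean levels of 34.8, 31.6 and 28.3 RPM in WT SPG, PreL and LZ and of 19.1, 13.1 and 7.79 RPM in the SKO groups, with no overlap between the genotypes in any stage. All 4 germ cell markers and all 8 early meiosis markers were detected in every group, at summed levels of at least 3045 and 3760 RPM. Both of these lowest sums were in SKO LZ. The germ cell markers summed to 3045 to 3762 RPM in SKO LZ and 3865 to 4042 RPM in WT LZ. The early meiosis markers summed to 3760 to 5656 RPM in SKO LZ and 5691 to 6650 RPM in WT LZ, also without overlap. The summed level of 5 spermatid markers was 89.8 to 916 RPM in WT libraries and 0.101 to 4.61 RPM in SKO libraries, and that of 5 Leydig cell markers was 5.52 to 47.6 RPM in WT and 37.3 to 364 RPM in SKO.

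The members have no common function. Nip7 is needed to build the large ribosomal subunit. Lcmt2, also called TYW4, acts in the last steps of making wybutosine, a modified base beside the anticodon of phenylalanine tRNA. Bcas2 is a core part of the Prp19 complex, which activates the spliceosome. Dclre1c encodes Artemis, the nuclease that opens DNA hairpins and trims broken ends in non-homologous end joining. A630055G03Rik is an older symbol of Rmi2, a subunit of the complex of BLM, TOP3A and RMI1 that dissolves joined DNA molecules. Slc7a14 belongs to the SLC7 family of amino acid transporters and is found in lysosomes. Slfn5 belongs to the Schlafen family, whose genes respond to interferon. Gm16702 and A330069E16Rik are annotated as long intergenic non-coding RNAs and Gm15645 as a transcribed processed pseudogene. Mouse transcripts often carry copies of short interspersed elements in their untranslated ends and introns. The most common are B1, derived from 7SL RNA, and B2, derived from a tRNA, which RNA polymerase III can also transcribe on its own. In Smart-seq2, an oligo(dT) primer copies any RNA with a run of A, and the transposase-based library kit used does not mark strand. Reads from either strand of such an element can count towards the gene that holds it if they map uniquely and strand was ignored in counting. The strand setting of the counting is not given.

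The members share a stretch of sequence that the choice did not use. Of all 30-base windows of their transcripts, 7 tied for presence in the most members, exact in 6 of them. The one of these found exactly in the most genes of the annotation, 638, was used here. It was present with at most 3 mismatches in 9 of 10. Its letters were recognised as part of the B2 element from general knowledge, without a repeat library, and are shown because 9 of the 10 members hold them. The first line is the stretch itself, as it stands in Gm16702, Slc7a14, A630055G03Rik, Dclre1c, Slfn5 and Gm15645, and capitals in the other lines mark bases that differ from it.
B2 stretch: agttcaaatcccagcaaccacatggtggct
Nip7, chr8:107059663-107059692: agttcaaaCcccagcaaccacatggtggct
Bcas2, chr3:103179033-103179062: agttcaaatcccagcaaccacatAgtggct
A330069E16Rik, chr2:91237929-91237958: agttcaCatcTcagcaacGacatggtggct

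Positions are on GRCm38 (mm10), with transcripts of GENCODE M21, and each line is read along the strand that matches the stretch. The stretch stands on the same strand as the transcript in Nip7, Slc7a14 at chr3:31206327-31206356, A630055G03Rik at chr16:10842144-10842173, Bcas2, Slfn5 at chr11:82963835-82963864 and A330069E16Rik. It stands on the opposite strand in Gm16702 at chr17:8379753-8379782, Dclre1c at chr2:3461542-3461571 and Gm15645 at chr7:105862212-105862241. In the 6 protein-coding members that hold it, Nip7, Slc7a14, A630055G03Rik, Dclre1c, Bcas2 and Slfn5, it lies in the 3′ UTR, and in the other 3 it lies in an exon of a transcript without coding sequence. In Lcmt2 the closest window differed at 12 of the 30 bases, so Lcmt2 does not hold it. Of the 22777 genes of the table with a transcript sequence, 1481 (6.5%) held the stretch within the same 3 mismatches, counting both strands. The stretch was picked from the members themselves, so their count of 9 of 10 is a description. A second stretch, recognised in the same way as part of the B1 element, was exact in 3 members (Nip7, A630055G03Rik and Slfn5, each in the 3′ UTR) and within 3 mismatches in Gm16702, against 2133 genes (9.36%) of the table.
B1 stretch: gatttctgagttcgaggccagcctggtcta
Gm16702, chr17:8379374-8379403: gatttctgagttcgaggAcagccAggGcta

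The members were already among the abundant genes of spermatogonia and pre-leptotene cells, fell to lower ranks in WT LZ and led the table in SKO LZ. By mean RPM they held ranks 3 to 48 in WT SPG, 3 to 36 in SKO SPG, 3 to 23 in WT PreL and 3 to 25 in SKO PreL. H3f3b, a replacement histone H3 gene, and Hmgn2, a nucleosome-binding protein gene, were the 2 most abundant genes in these 4 groups. In WT LZ the members held ranks 17 to 190, and 6 of 10 were within the first 100.

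**Figure D1:**
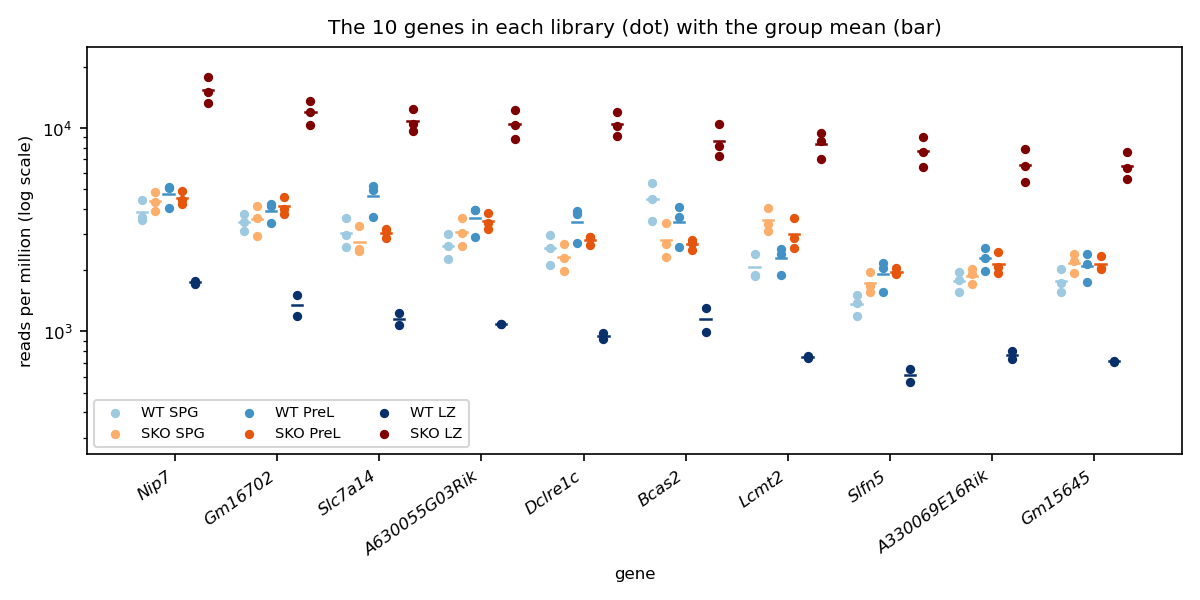
RPM of the 10 genes (log scale) in each of the 17 libraries, coloured by group, with a bar at each group mean. In all 10 genes the 2 WT LZ libraries lie lowest and the 3 SKO LZ libraries highest, while the SPG and PreL libraries of both genotypes lie between them.

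Nip7, the ribosome assembly factor, took 17752, 13254 and 14985 RPM in SKO LZ. It took 1779 and 1712 RPM in WT LZ, 4025, 5123 and 5084 in WT PreL, 4435, 4223 and 4873 in SKO PreL, 3521, 4425 and 3661 in WT SPG, and 4318, 4838 and 3917 in SKO SPG. The 3 SKO LZ libraries lay above and the 2 WT LZ libraries below all 12 libraries of the earlier stages, which overlapped between the genotypes.

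Lcmt2, the wybutosine synthesis enzyme, took 9423, 7059 and 8602 RPM in SKO LZ and 741 and 755 RPM in WT LZ. Its SPG libraries held 1882, 2415 and 1904 RPM in WT and 3388, 4022 and 3123 RPM in SKO, and its PreL libraries 1895, 2555 and 2399 RPM in WT and 2868, 2580 and 3592 RPM in SKO. Lcmt2 was the only member whose SKO libraries lay above the WT libraries in all 3 stages on this scale. In PreL the lowest SKO value, 2580 RPM, lay close to the highest WT value, 2555 RPM. Here and below, the share of all genes without overlap on RPM was not computed.

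Bcas2, the splicing factor, took 10418, 7307 and 8154 RPM in SKO LZ and 1302 and 991 RPM in WT LZ. Its SPG libraries held 3496, 5370 and 4488 RPM in WT and 2680, 3408 and 2325 RPM in SKO, and its PreL libraries 2607, 3662 and 4068 RPM in WT and 2805, 2709 and 2517 RPM in SKO. Bcas2 thus lay lower in SKO than in WT in all 3 SPG libraries, with overlap in PreL, and higher in SKO in LZ.

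Dclre1c, the end-joining nuclease, took 12031, 9099 and 10182 RPM in SKO LZ against 980 and 922 RPM in WT LZ. In WT PreL it took 2719, 3895 and 3758 RPM, and in SKO PreL 2908, 2673 and 2900 RPM. The SPG libraries spanned 2119 to 2986 RPM in WT and 1990 to 2675 RPM in SKO, so the genotypes overlapped in both early stages. A630055G03Rik, the other DNA repair member, took 12275, 8811 and 10340 RPM in SKO LZ and 1083 and 1089 RPM in WT LZ. Its 12 libraries of the earlier stages spanned 2258 to 3973 RPM and overlapped between the genotypes.

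Slc7a14, the transporter, took 12462, 9618 and 10433 RPM in SKO LZ and 1071 and 1235 RPM in WT LZ. It took 3641, 5211 and 4977 RPM in WT PreL and 3182, 2870 and 3067 RPM in SKO PreL, so that all SKO PreL libraries lay below all WT PreL libraries. Its SPG libraries spanned 2589 to 3592 RPM in WT and 2474 to 3282 RPM in SKO and overlapped.

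Slfn5, the Schlafen gene, took 9065, 6402 and 7632 RPM in SKO LZ and 651 and 565 RPM in WT LZ. In WT PreL it took 1554, 2039 and 2164 RPM, and in SKO PreL 1914, 1927 and 2050 RPM. In SPG it spanned 1196 to 1513 RPM in WT and 1567 to 1964 RPM in SKO, without overlap. Its WT LZ libraries were the lowest of any member.

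The 3 members without a coding sequence followed the same order of groups. Gm16702 took 13511, 10309 and 12039 RPM in SKO LZ and 1196 and 1515 RPM in WT LZ. A330069E16Rik took 7857, 5418 and 6515 RPM in SKO LZ and 734 and 800 RPM in WT LZ. Gm15645 took 7607, 5635 and 6323 RPM in SKO LZ and 705 and 719 RPM in WT LZ. In SPG and PreL of both genotypes, Gm16702 spanned 2959 to 4554 RPM, A330069E16Rik 1563 to 2580 RPM and Gm15645 1562 to 2395 RPM.

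Together the members held 11.2, 8.29 and 9.52% of all reads in SKO LZ and 1.02 and 1.03% in WT LZ. The share was 2.33 to 3.11% in WT SPG, 2.46 to 3.24% in SKO SPG, 2.65 to 3.56% in WT PreL and 2.79 to 3.22% in SKO PreL, so both genotypes overlapped before LZ. The SKO LZ library with the fewest reads, 5812380, had the highest share and the one with the most reads, 7609420, the lowest. Whether depth had a part in this was not tested.

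The share of each member in the members' reads varied over the 17 libraries, less in some members than in others. Nip7 held 13.8 to 17.4%, Gm16702 11.7 to 14.7%, A630055G03Rik 9.66 to 11.8% and A330069E16Rik 6.24 to 7.76%. The widest ranges were those of Bcas2, 7.83 to 17.3%, and Lcmt2, 6.74 to 12.7%, the members that moved most between the genotypes in SPG, and then those of Slc7a14, 9.15 to 14.9%, and Slfn5, 4.87 to 8.06%. Dclre1c held 8.08 to 11.1% and Gm15645 6.11 to 8%. Over the 17 libraries, the 45 pairs of members had Pearson correlations of log2(RPM + 1) from 0.841 to 0.996, with a median of 0.977. These points share libraries, depth and the split between LZ groups, and describe the pattern only.

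Levels between genes were compared per kilobase of the longest GENCODE transcript, which may differ from the model the reads were counted on. In SKO LZ, A330069E16Rik, with an 887-base transcript, had the highest level, 7437 ± 1377 RPM per kb (SD, n = 3). Nip7 (5049 ± 747) and Gm16702 (5014 ± 672) followed and did not differ beyond their spread, and neither did Gm15645 (2953 ± 453), A630055G03Rik (2799 ± 464) and Lcmt2 (2736 ± 393). Bcas2 had 2224 ± 415 RPM per kb, and Dclre1c (1475 ± 210), Slfn5 (1288 ± 223) and Slc7a14 (1218 ± 165) stood last and within their spread of one another. In WT LZ the same 3 genes led, with 865 ± 52.3 RPM per kb for A330069E16Rik, 575 ± 15.5 for Nip7 and 569 ± 94.8 for Gm16702 (n = 2). Slfn5, Slc7a14 and Dclre1c were the 3 lowest of the members per kb in all 6 groups.

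Between the LZ groups the mean RPM of the members was 7.52-fold (Bcas2) to 12.7-fold (Slfn5) higher in SKO than in WT, with a median of 9.28-fold. On ERCC-calibrated values the median was 11-fold, and on values rescaled by median-of-ratios size factors, which set the middle of all genes to no change, it was 12-fold. On the scale log2(rescaled value + 10) the differences ran from 3.29 to 4.03 with a median of 3.58, against -0.13 for all 13724 genes kept. All 3 SKO LZ libraries lay above both WT LZ libraries in 10 of 10 members, as they did in 30.3% of all genes. From PreL to LZ in SKO, the mean RPM of the members was 2.77-fold (Lcmt2) to 3.92-fold (Slfn5) higher, and the median was 3.14-fold on RPM, 4.22-fold on rescaled values and 7.59-fold on ERCC-calibrated values. All SKO LZ libraries lay above all SKO PreL libraries in 10 of 10 members, as in 25.2% of all genes. Both comparisons use the libraries that chose the members, so these values carry no test. The summed spermatid markers were 530 to 916 RPM in WT LZ and 2.58 to 3.15 RPM in SKO LZ, where Acrv1 was at 0. The macrophage markers were 0.651 to 1.98 and 3.79 to 20.8 RPM, and the Sertoli markers, with Amh at 0 in SKO LZ, 54.8 to 259 and 150 to 203 RPM. The Leydig markers were 20 to 47.6 RPM in WT LZ and 61.8 to 191 RPM in SKO LZ. The part of these cells and of the lower depth of SKO LZ in the result was not tested.

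The WT libraries, which the choice did not use, asked whether the members change as normal cells enter LZ. On rescaled values all 10 members fell from WT PreL to WT LZ, against 7.8% of the 13759 genes tested. Their log2 fold changes ran from -2.14 to -1.59 with a median of -1.75, beside a median of 0.13 over all genes. The 2 WT LZ libraries lay below the 3 WT PreL libraries in 10 of 10 members, as in 28.8% of all genes. Slc7a14 had a log2 fold change of -2.14 (SE 0.27, adjusted p = 0.00251, limma with Benjamini-Hochberg adjustment over all genes). Dclre1c had -2.0 (SE 0.25, adjusted p = 0.00251, limma) and A630055G03Rik -1.88 (SE 0.25, adjusted p = 0.00251, limma). The values of Nip7, -1.59 (SE 0.24, adjusted p = 0.00274, limma), and Gm16702, -1.69 (SE 0.26, adjusted p = 0.0029, limma), were nearest to the threshold of the call, an absolute log2 fold change above 1 with an adjusted p under 0.05.

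These calls rest on the scale. On the ERCC-calibrated values without rescaling, the median of all genes rose by 1.86 from WT PreL to WT LZ, 80% of genes were called, and no member was. The members' log2 fold changes were then -0.31 to 0.24, 7 of 10 of them above 0, with adjusted p from 0.387 to 0.929 (limma). Per library, the ERCC-calibrated value of Nip7 was 53384, 88034 and 83394 in WT PreL and 79918 and 93616 in WT LZ, which overlapped. On both scales the members' differences lay below the median of all genes. With size factors taken only from genes that hold neither the B2 nor the B1 stretch, a scaling added once the data had been seen, all 10 members were still called lower, with log2 fold changes of -2.24 to -1.69.

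**Figure D2:**
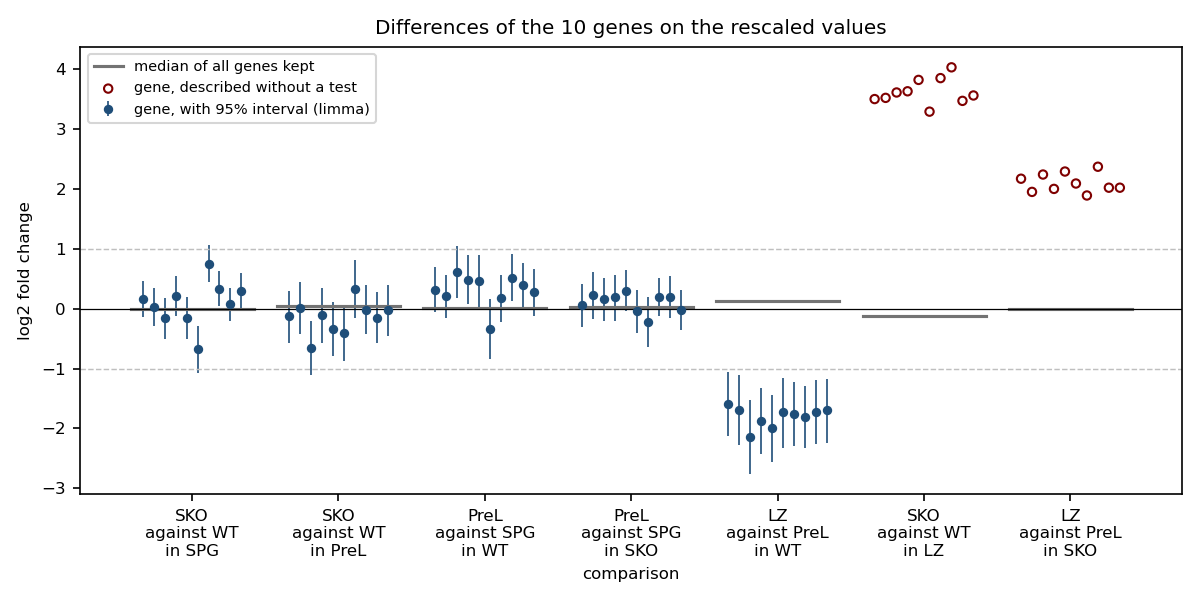
Log2 fold changes of the 10 genes on log2(rescaled value + 10) in 7 comparisons. From the left these are SKO against WT in SPG and in PreL, then PreL against SPG in WT and in SKO. LZ against PreL in WT, SKO against WT in LZ and LZ against PreL in SKO follow. Filled points carry 95% intervals from limma, and open points use the libraries that chose the genes and have no test. Grey bars mark the median of all genes kept and dashed lines an absolute log2 fold change of 1. The 10 genes stand between -2.14 and -1.59 for LZ against PreL in WT and between 3.29 and 4.03 for SKO against WT in LZ.

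In spermatogonia, 0 of 10 members were called between SKO and WT, against 6.02% of 12846 genes in either direction (limma). At an adjusted p under 0.05 with any fold there were 2, against 11.1% of genes, and at an unadjusted p under 0.05 there were 3. Here and in the next comparisons, the share of all genes at an unadjusted p under 0.05 was not computed. Lcmt2 was 1.68-fold higher in SKO, a log2 fold change of 0.75 (SE 0.15, adjusted p = 0.00554, limma), and all SKO libraries lay above all WT libraries, as in 15.2% of genes, but this is under the fold threshold. Bcas2 had -0.68 (SE 0.18, adjusted p = 0.0297, limma), and its rescaled values overlapped although its RPM did not. Slfn5 also had overlapping rescaled values, with 0.33 (SE 0.14, adjusted p = 0.139, limma). The other 7 members had log2 fold changes of -0.16 to 0.29.

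In pre-leptotene cells, 0 of 10 members were called, against 11.1% of 13132 genes (limma), and 1 had an unadjusted p under 0.05. This was Slc7a14, whose SKO libraries lay below the WT libraries, as in 20% of genes, with a log2 fold change of -0.65 (95% interval -1.10 to -0.20, adjusted p = 0.0521, limma). Lcmt2, whose rescaled values overlapped, had 0.33 (95% interval -0.15 to 0.81) and Bcas2 -0.41 (95% interval -0.87 to 0.06). The remaining members ran from -0.34 (Dclre1c) to 0.01 (Gm16702). On the ERCC-calibrated values, where the median of all genes was 0.73 and 30.8% of genes were called, Lcmt2 was called higher at 1.06 (adjusted p = 0.00394, limma) and no other member was called.

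From SPG to PreL, 0 of 10 members were called in WT, against 3.75% of 12657 genes (limma), and 5 had an unadjusted p under 0.05. In WT, 9 of 10 members had a positive log2 fold change, up to 0.62 for Slc7a14 (SE 0.20, adjusted p = 0.0809, limma), and Bcas2 had -0.34 (SE 0.23, adjusted p = 0.367, limma). The share of all genes with a positive value was not computed. The members' levels moved together over the libraries, with a median pairwise correlation of 0.977, so these counts are not separate results. In SKO, 0 of 10 were called, against 2.59% of 12882 genes (limma), and none had an unadjusted p under 0.05. Their log2 fold changes ran from -0.22 (Lcmt2) to 0.30 (Dclre1c). On the ERCC-calibrated values 8 of 10 were called higher in SKO, all but Bcas2 (1.0) and Lcmt2 (0.82), while the median of all genes was 1.01 and 44.1% of genes were called.

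The genotype effect did not pass the test of a difference between PreL and SPG in any member, against 0.362% of 13530 genes (interaction term, limma over all 17 libraries). None had an unadjusted p under 0.05, and the estimates ran from -0.51 (Slc7a14, 95% interval -1.17 to 0.14) to 0.25 (Bcas2, 95% interval -0.44 to 0.93). On the ERCC-calibrated values, where the median of all genes was 0.94 and 45% of genes passed, Gm16702 (0.98), Bcas2 (1.27) and A330069E16Rik (0.77) passed.

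**Figure D3:**
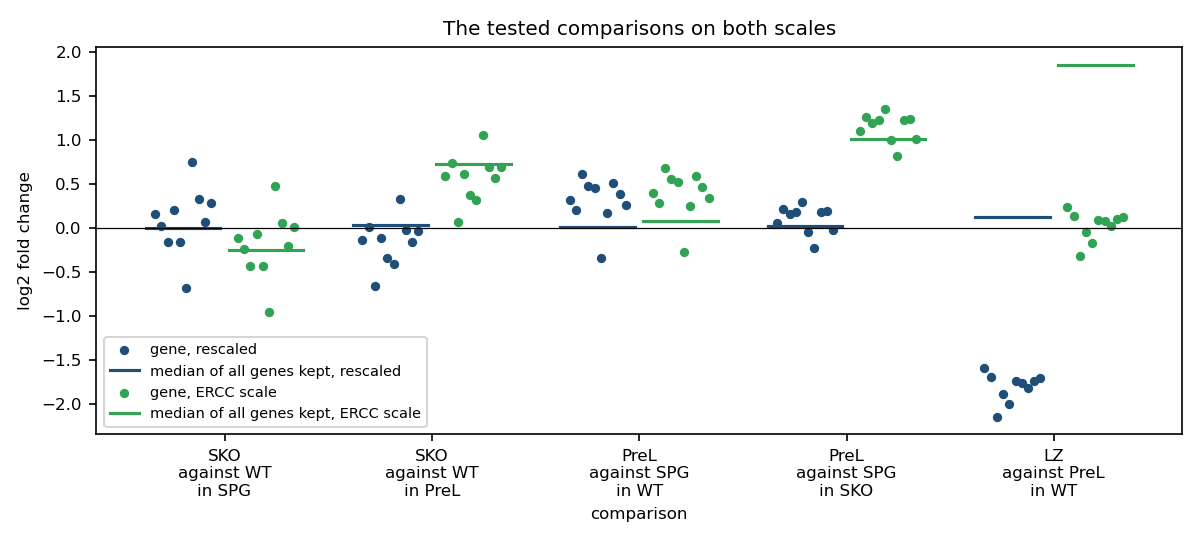
Log2 fold changes of the 10 genes in the 5 tested comparisons on rescaled values (blue) and on ERCC-calibrated values (green), with the median of all genes kept on each scale as a bar. For LZ against PreL in WT the genes stand below the bar on both scales, at -2.14 to -1.59 against 0.13 and at -0.31 to 0.24 against 1.86.

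Whether reads of repeated sequence account for the members' counts was asked next. The table gives 1 value per gene, so reads over the stretch and over the rest of a gene cannot be told apart, and the part of repeat reads in any member's count was not tested. What can be given is how much of each member also occurs in other genes and how other genes with the same stretch behaved. Of the 50-base windows of the members' transcripts, a median of 4.94% also occurred in another gene, against a median of 0.475% over all genes. Both strands were counted, so exons that overlap a gene at the same place count here as well as repeats. Windows found in 20 or more genes were present in 8 of 10 members and in 16.9% of all genes, and at 30 bases in 9 of 10 members and 35.6% of genes. Such windows made up 1.98% of the 50-base windows in Nip7, 1.55% in Gm16702, 1.33% in Slfn5 and 1.19% in A630055G03Rik, and none in Lcmt2 and A330069E16Rik. At 100 bases no member had a window present in 20 or more genes. The median share found in another gene was then 0.0103% in the members and 0% over all genes. The reads were paired, and only uniquely mapped reads were counted. Per the study's methods each read was sequenced longer than the longest of these windows. A window that occurs in other genes can therefore lie in a read that maps uniquely.

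Gm15645, the pseudogene, differed from the rest in that 68.8% of its 50-base windows and 52.7% of its 100-base windows occurred in other genes. These include Dchs1, with which it shares 648 exon bases on the opposite strand. The part due to near-identical copies was not separated. Its count may be split with overlapping genes or such copies and is uncertain. In Slfn5 6.4% and in Lcmt2 3.91% of 100-base windows occurred in 1 other gene. Both overlap a gene at the same place, Slfn5 with Slfn5os over 559 exon bases and Lcmt2 with Adal over 226, which count here. The longest run of A in a transcript, a possible internal site for the oligo(dT) primer, was 22 bases in Slfn5, 19 in A630055G03Rik and 6 to 11 in the other 8 members, where the median over all genes was 6 and the 90th percentile 12.

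Genes other than the members that hold the B2 stretch took a larger share of reads in SKO LZ and a smaller one in WT LZ than elsewhere. In SKO LZ, 1472 such genes held 32, 26.6 and 28.7% of all reads, and in WT LZ 12.3 and 12.3%. In the other groups they held 15.8 to 17.5% (WT SPG), 16.3 to 17.6% (SKO SPG), 17 to 19.5% (WT PreL) and 16.8 to 17.8% (SKO PreL). Genes with the B1 stretch and no B2 stretch held 9.6 to 10.1% in SKO LZ and 10.8 to 11.4% elsewhere. Genes with neither held 45.8 to 53.8% in SKO LZ and 65 to 74.4% elsewhere. Of the first 100 genes by mean RPM in SKO LZ, 61 of the 96 with a sequence (63.5%) held the B2 stretch, a count that includes the members from which it was picked. Without them, at ranks 11 to 100, it was 52 of 86 (60.5%). Of the first 100 genes, members included, 12 of 99 (12.1%) held it in WT LZ and 35 of 99 (35.4%) in SKO PreL.

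**Figure D4:**
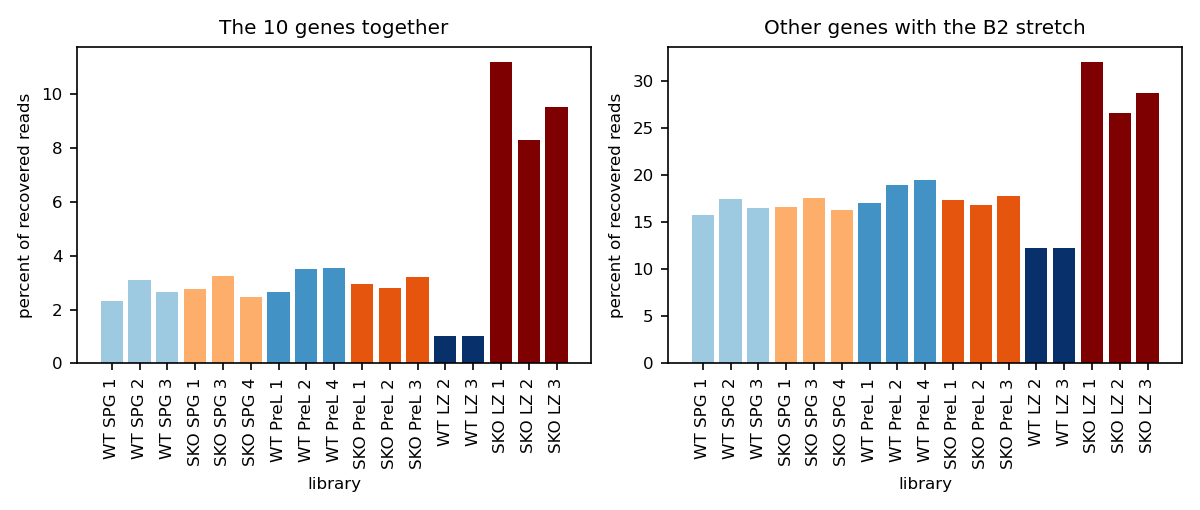
Percent of recovered reads in each of the 17 libraries held by the 10 genes together (left) and by the 1472 other genes whose transcripts hold the B2 stretch (right), with bars from 0 and coloured by group. The 3 SKO LZ libraries are highest in both panels, at 8.29 to 11.2% and 26.6 to 32%, and the 2 WT LZ libraries lowest.

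The medians of other genes differed with the strand of the stretch, which was not tested. Without the members, genes with the stretch on the strand of the transcript had a median log2 fold change of 0.47 between SKO and WT in LZ (577 genes, upper quartile 2.39). Genes with it on the opposite strand had 0.08 (634 genes, upper quartile 0.92), and genes with neither stretch had -0.21 (10850 genes). Values above 1 were found in 35.7%, 23.2% and 12.8% of these genes. Genes with only the B1 stretch had a median of 0.16 (1404 genes) and 25% of them lay above 1. Both values were above those of the opposite strand, and these differences were not tested. For LZ against PreL in SKO the medians were 0.20 on the same strand, -0.04 on the opposite strand and -0.03 with neither stretch. On the opposite strand 19.7% of genes lay above 1, against 10.2% with neither stretch and 20.9% with only the B1 stretch (median 0.05). For LZ against PreL in WT the medians were -0.46, -0.28 and 0.24 in that order, and -0.20 with only the B1 stretch. For the genotypes in SPG and in PreL and for PreL against SPG, all these medians lay between -0.08 and 0.14. Genes that held the B2 stretch more than once had a median of 0.02 (118 genes) between SKO and WT in LZ, and those with 1 copy had 0.33 (1179 genes).

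Transcripts with the stretch were longer, with a median of 4094 bases against 2706 without it. Within transcripts under 3000 bases, the median between SKO and WT in LZ was 0.38 with the stretch and -0.46 without, and 37.5% and 11.9% of genes lay above 1. Within those of 6000 bases or more, the medians were 0.30 and 0.24, and 23.3% and 17.6% lay above 1. The distance between genes with and without the stretch was thus widest in short transcripts. Among the members A330069E16Rik (887 bases) and Slc7a14 (8897 bases) stand at both ends of length and had close log2 fold changes between SKO and WT in LZ, 3.47 and 3.61.

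Some genes with high levels in SKO LZ hold neither stretch within 3 mismatches in the transcripts searched. Lcmt2 holds neither stretch and had a log2 fold change of 3.85 between SKO and WT in LZ, the second highest of the members. Of the genes at ranks 11 to 15 in SKO LZ, Loxl2, a lysyl oxidase, and Gmeb1, a transcription factor, hold the B2 stretch. Lrrc17, Ogdh and the pseudogene Vmn2r-ps129 hold neither, and took 6476, 6414 and 6324 RPM in SKO LZ and 1092, 688 and 520 RPM in WT LZ. Whether Lrrc17, Ogdh and Vmn2r-ps129 hold other repeated sequence was not examined. The part of repeat reads in their counts was not tested. Vmn2r-ps129 took 2346, 2243 and 2739 RPM in SKO PreL and 1091, 1200 and 1594 RPM in WT PreL, without overlap.

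The genes other than the members whose levels followed the members' mean most closely over the 17 libraries were Casc4 (r = 0.999), Cflar (0.998), 1700007J10Rik, H2-T23 and Rpl7l1 (0.996 each, Pearson correlation of log2(RPM + 1)). Casc4 took 4822 ± 681 RPM in SKO LZ and 583 ± 5.05 RPM in WT LZ, and Cflar, an inhibitor of caspase-8, 1761 ± 328 and 158 ± 8.42 RPM. Casc4, Cflar, 1700007J10Rik and H2-T23 hold the B2 stretch, and Rpl7l1 holds the B1 stretch. In all, 165 of 13530 genes had a correlation of at least 0.95, where the median of the genes that are no members was -0.294. Of the 159 of them with a sequence, 132 (83%) held the B2 stretch, against 9.64% of all genes kept. The points of these correlations share the libraries and the high SKO LZ values, so they are a description.

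Of the genes listed here beside or across from the members, T2 alone was several times higher in SKO LZ than in WT LZ. Suv39h2, a histone H3K9 methyltransferase gene, overlaps exons of Dclre1c on the opposite strand over 357 bases and took 54.2 RPM in WT LZ and 89.1 RPM in SKO LZ. Adal overlaps Lcmt2 over 226 bases and took 28.9 and 22.1 RPM, and Dchs1 overlaps Gm15645 over 648 bases and took 4.52 and 1.69 RPM. T2 overlaps Gm16702 over 75 bases and took 9.68 RPM in WT LZ and 115 RPM in SKO LZ. Without strand in the library, reads of overlapping exons cannot be assigned to either gene. Cog8, 188 bases from Nip7 on the opposite strand, took 26.4 RPM in WT LZ and 4.41 RPM in SKO LZ. Ddb2, 164 bases from A330069E16Rik, took 23.1 and 4.91 RPM, and Dennd2c, 1886 bases from Bcas2, 34.5 and 37.5 RPM. Prm1, a protamine gene 29220 bases from A630055G03Rik, took 238 RPM in WT LZ and 0.241 RPM in SKO LZ.

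The partners of the members in their known functions were taken from lists, whose genes are no members. Of 14 genes of large ribosomal subunit assembly, the partners of Nip7, 0 were called higher and 2 lower between SKO and WT in LZ (Wdr12 at -1.14 and Mrto4 at -1.0, adjusted p = 0.0047 and 0.00367, limma) and 0 were called from PreL to LZ in WT. Under the fold threshold, Ftsj3 (0.60), Rrs1 (0.60), Nol8 (-0.83) and Ebna1bp2 (-0.85) also had an adjusted p under 0.05 between SKO and WT in LZ (limma). From PreL to LZ in WT this held for Wdr12 (0.80, adjusted p = 0.0327, limma) and Rpf2 (-0.66, adjusted p = 0.0323, limma). These genes under the threshold were named after their values were seen. The share of all genes called was 39.1% between the genotypes in LZ and 26.6% from PreL to LZ in WT. Of the 8 end-joining genes tested, the partners of Dclre1c, 3 were called lower (Xrcc4 at -1.29, Nhej1 at -1.17 and Poll at -3.52) and 0 higher between SKO and WT in LZ, and in WT Poll, a repair polymerase gene, rose by 2.67 from PreL to LZ (adjusted p = 0.00428, limma).

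Of the 10 genes of the Prp19 complex and its associates, the partners of Bcas2, Prpf19 itself rose by 2.07 in SKO LZ (adjusted p = 0.000473, limma) and fell by 1.59 from PreL to LZ in WT (adjusted p = 0.00505, limma), and Ctnnbl1 fell by 1.26 in SKO LZ. Of the 5 genes tested in wybutosine synthesis and around its paralog Lcmt1, the partners of Lcmt2, Tyw1, which makes the tricyclic base, rose by 3.25 in SKO LZ (adjusted p = 5.72e-05, limma) and fell by 1.54 from PreL to LZ in WT (adjusted p = 0.0061, limma), while Trmt12, the next enzyme, fell by 1.28 in SKO LZ. Of the partners called in either LZ comparison, Tyw1 and Wdr12 hold the B2 stretch on the strand of the transcript, Tyw1 once and Wdr12 2 times, and they moved in opposite directions in SKO LZ. Wdr12, Prpf19 and Slc7a2 hold the B1 stretch, and the others hold neither. Of 8 SLC7 genes tested, Slc7a2 (2.18) and Slc7a8 (1.86) rose and Slc7a7 (-2.63) fell in SKO LZ, and in WT Slc7a4 (2.93) and Slc7a7 (2.43) rose from PreL to LZ. Of the other Schlafen genes none passed the filter in LZ. Under the fold threshold, Syf2 (-0.91), Xab2 (-0.53), Cwc15 (-0.50), Xrcc5 (-0.66), Slc7a6 (-0.71) and Lcmt1 (-0.64) also had an adjusted p under 0.05 between SKO and WT in LZ (limma). From PreL to LZ in WT this held for Xrcc6 (-0.82), Nhej1 (0.80) and Cdc5l (-0.71). These genes too were named after their values were seen. Between the genotypes, 0 genes of these lists were called in SPG, against 6.02% of all genes, and 0 in PreL, against 11.1% (limma). In PreL, 4 of them had an adjusted p under 0.05 below the fold threshold and are named for that reason: Prpf19 (-0.99, adjusted p = 0.0136, limma), which was higher in SKO LZ, Ftsj3 (-0.60), Crnkl1 (-0.51) and Xab2 (-0.51). Of the 58 partner genes with a sequence, 5 (8.62%) held the B2 stretch.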

How the data were processed

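The members and all gene lists were chosen with earlier results of these data known. Per the labels and the study's methods, libraries were made from sorted cells by Smart-seq2 with ERCC spike-ins and a transposase-based kit. The authors mapped reads with TopHat2 (version 2.1.1), kept uniquely mapped reads, counted them with HTSeq (version 0.11.2) and calibrated the counts by ERCC. Cufflinks (version 2.2.1) and DESeq2 are also listed, and the labels name both mm9 and mm10. The annotation version and the strand setting of the counting are not given in the sources used here. The deposited values are a signal, counts times 1 factor per library. Dividing each column by its smallest value above 0 gave whole reads for 100% of values within 0.01 reads, and RPM was computed from those reads.

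Tests used limma (version 3.58.1, R 4.3.3) on log2(value / median-of-ratios size factor + 10), a pseudocount that understates changes of low genes, keeping genes whose mean was 10 reads or more. P-values were adjusted by Benjamini-Hochberg over all genes tested, and a gene was called at an adjusted p under 0.05 with a log2 fold change beyond 1 either way (for the interaction, the adjusted p alone). Each comparison was fitted on its own groups, and the interaction on all libraries. The code was tested on simulated data. Alternatives were edgeR (version 4.0.16) and DESeq2 (version 1.42.0) on the recovered reads, TMM, pseudocounts of 1 and 50, filters, the ERCC-calibrated values, a replicate block and leaving out each library. Members were named because they are the 10 chosen genes. The 5 genes next in rank, the 5 most alike by Pearson correlation, neighbours and called partners were also named. The stretches were searched in GENCODE M21 transcripts, either strand, with at most 3 mismatches. Of the 23282 symbols, 20857 matched directly, 1920 through older symbols and 505 did not match. Genomic sequence outside transcripts was not used here.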

Additional observations from a re-analysis of the deposited data

How the results depend on the processing

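Of 105 alternative counts of members called, 101 stayed the same, and the 4 that moved were all on ERCC-calibrated values without rescaling. These were 1 member for SKO against WT in PreL (30.8% of all genes called), 0 for LZ against PreL in WT (80%), 8 for PreL against SPG in SKO (44.1%) and 3 for the interaction (45%). On that scale the log2 fold changes from PreL to LZ in WT turned positive for Nip7 (0.24), Gm16702 (0.14), Bcas2 (0.10), Lcmt2 (0.08), Slfn5 (0.03), A330069E16Rik (0.11) and Gm15645 (0.13), and the scale itself moved the median of all genes from 0.13 to 1.86. The other 140 of 150 alternative values of this comparison kept the call, at -2.42 to -1.35 with adjusted p from 3.00e-11 to 0.0345 (limma, edgeR or DESeq2). Leaving out any 1 library kept 10 to 10 members called there and 0 to 0 in the other tested comparisons. With 1 WT LZ library left, that library was assumed to vary like the PreL libraries. The median log2 fold of RPM between SKO and WT in LZ was 3.21, with 3.10 to 3.30 when 1 library was left out and 3.58 on rescaled values. From PreL to LZ in SKO it was 1.65, with 1.51 to 1.77 when 1 library was left out, 2.92 on ERCC-calibrated values and 2.08 on rescaled values. Of 165 alternative values of these LZ folds, for the median and each member, 128 stayed within the spread between libraries and 37 moved beyond it. With the 100 most abundant genes left out of the denominator, the members' share was 3.14% in WT SPG, 3.3% in SKO SPG, 3.81% in WT PreL, 3.51% in SKO PreL, 1.15% in WT LZ and 12.2% in SKO LZ. In 6 of 6 groups this moved the mean share by more than the SD between libraries. The median share of members' windows found in other genes was 9.25% at 30 bases and 0.0103% at 100 bases. The replicate block left 0 members called in the comparisons where it could be fitted. It could not be fitted for LZ against PreL in WT. Same-numbered libraries had correlations of deviations from -0.19 to 0.14, so the numbers did not pair the samples. WT LZ had 2 libraries, which limits the precision of every value that uses it.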
